A study of Rattus norvegicus with 48 samples.

Results

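Expression of 10 genes of prostaglandin, leukotriene and phospholipase A2 biology was followed across primary rat cortical cultures exposed to the HIV-1 protein Tat, to cocaine and to 4 small molecules. The genes were Pla2g4a, Pla2g2a, Ptgs1, Ptgs2, Ptges, Ptgds, Hpgds, Alox5, Alox5ap and Ltc4s. They were taken by symbol from the table of 30211 genes, and all 10 had a row. The rule used no values, but the genes were chosen with earlier results of these data known, so their counts are read as descriptions. RNA sequencing had been run on 48 libraries in 16 groups of 3. Cultures were made from fetuses of Sprague-Dawley rats, 18 days old, and were used after 21 days in vitro. Control cultures received neither Tat, cocaine nor a compound. The Cocaine group received 25 µM cocaine for 24 h, the Tat group 6 ng/ml Tat for 48 h, and the Tat-Cocaine group both agents. The paper describes cocaine as added for 24 h after 48 h of Tat. It does not say whether cultures without cocaine were collected at the same time, and a part of time in the comparisons with cocaine was not tested. Each compound was given for 48 h in 3 settings, which were the compound by itself, the compound plus Tat, and the compound plus both agents. 4OI (4-octyl-itaconate, a cell-permeable ester of the immune metabolite itaconate) was used at 250 µM, and amlexanox, an anti-allergic drug that inhibits the kinases TBK1 and IKKε, at 25 µM. Tazemetostat, an inhibitor of the histone methyltransferase EZH2, was used at 3 µM, and senicapoc, a blocker of a calcium-activated potassium channel, at 1 µM. Whether a vehicle was added to Control is not given in the sources used here. The labels name the cell type neuron, but their protocol describes mixed cultures, and markers of microglia and astrocytes were expressed in every library.

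Eicosanoids are lipid signals made from arachidonic acid. Phospholipase A2 enzymes release arachidonic acid from membranes, the cyclooxygenases turn it into prostaglandin H2, and dedicated synthases convert that to prostaglandin E2, D2 and other prostanoids. Along the other branch, 5-lipoxygenase with its activating protein starts the leukotrienes, and leukotriene C4 synthase makes the cysteinyl leukotrienes. In the brain, microglia and other macrophages can switch on the inducible prostaglandin E2 route, while in neurons Ptgs2 is an activity-regulated gene.

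Values are given as deposited, in CPM (reads per 1e6 reads on genes) scaled between libraries, and levels of different genes are not compared because CPM does not account for gene length. Libraries held 17.5 to 29.1 M reads on genes (M, 1e6 reads; median 22.4 M), so 1 read stood for 0.0334 to 0.0583 CPM. Differences were tested with limma on log2(CPM + 0.5) in 15890 genes that reached 0.5 CPM in at least 3 libraries, and a gene was called at a Benjamini-Hochberg adjusted p below 0.05 over all of them. Fold changes on this scale understate the change of low genes. All 10 genes passed that minimum, but 3 did so only through the groups in which they were high. Pla2g2a and Ltc4s each reached 0.5 CPM in 25 of 48 libraries and Alox5 in 10 of 48. Calls of these 3 genes, and counts of calls that include them, are therefore given as descriptions only. The labels do not say whether the 3 libraries of a group came from separate animals or cultures, so the p-values measure the spread between these libraries. Summed CPM of 13 microglial markers ranged from 505 to 5480 over the 48 libraries, that of 7 neuronal markers from 792 to 3448 and that of 7 astrocyte markers from 5410 to 13240. In bulk RNA, fewer cells of a type and less RNA per cell cannot be told apart. Replicate number was itself a pattern: the library with number 2 was the highest of its group for Ptges in 16 of 16 groups, for Alox5ap in 15, for Ltc4s in 14 and for the microglial marker sum in 15.

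**Figure D1:**
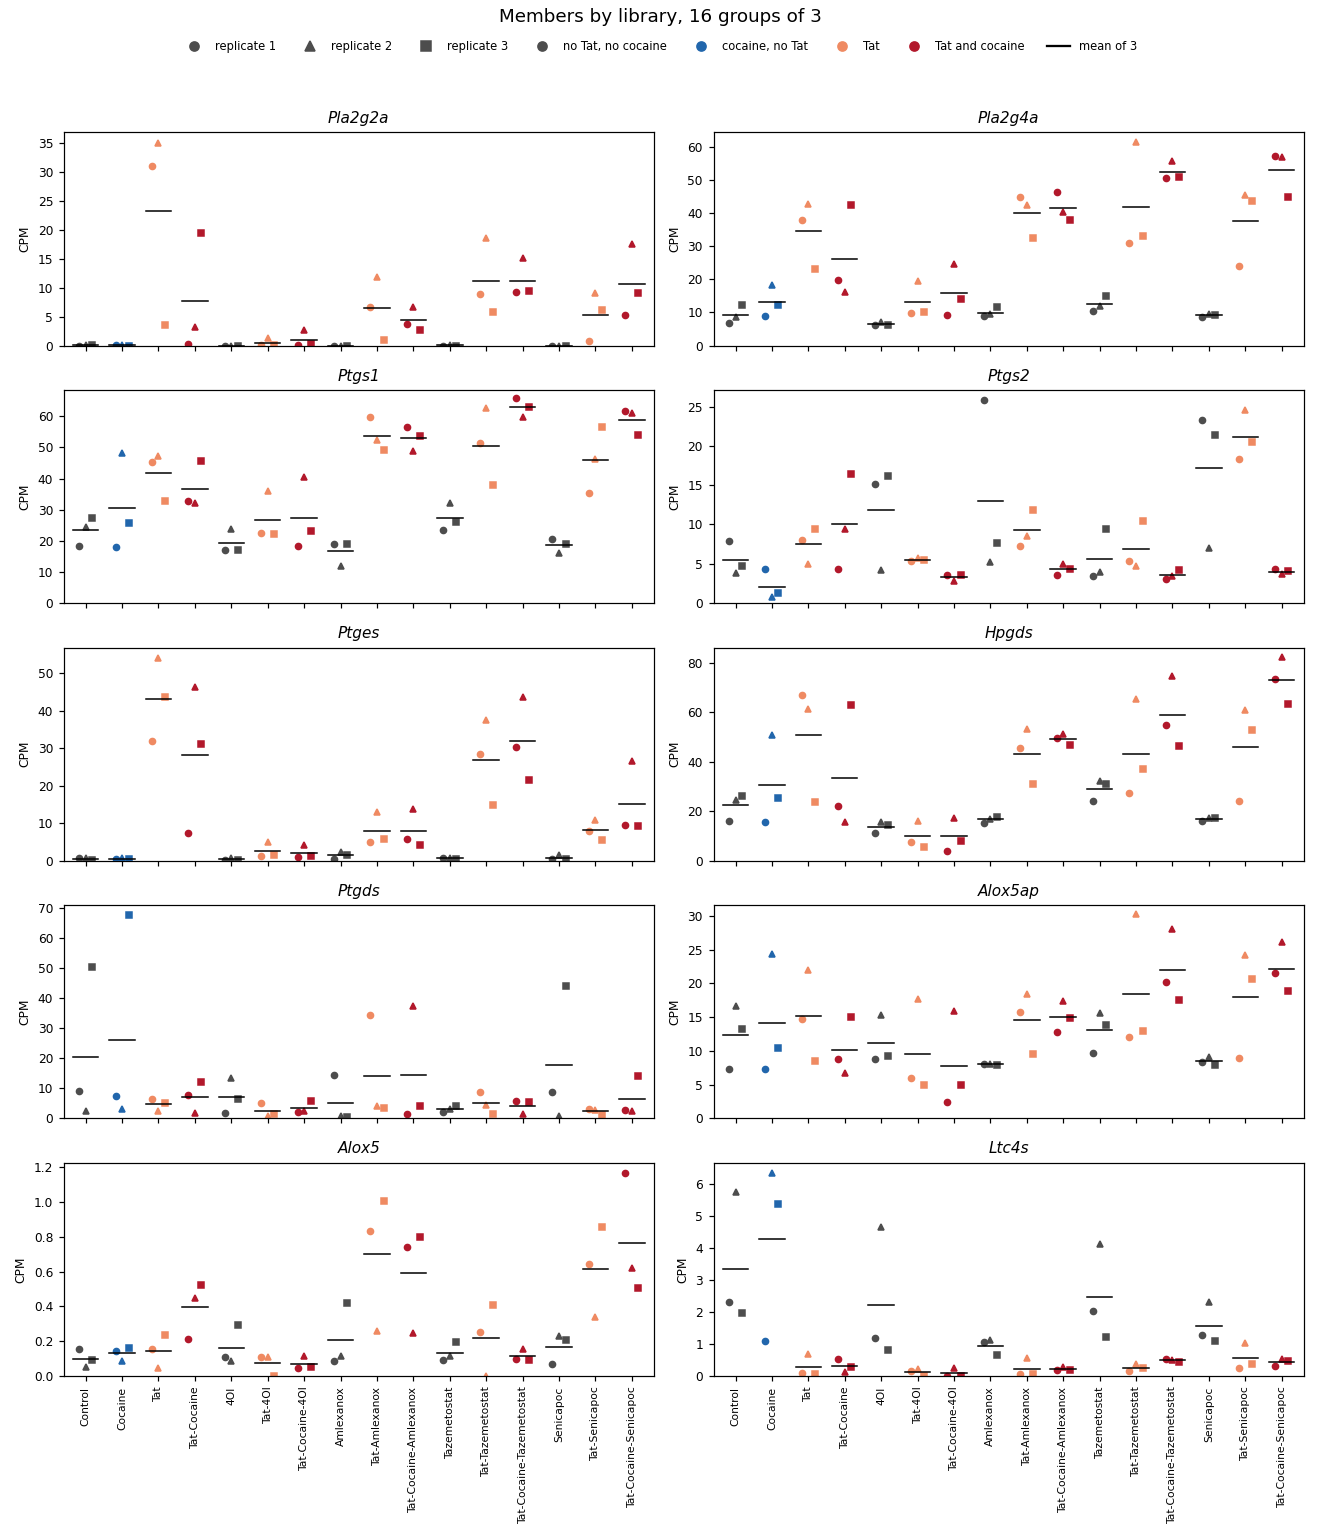
Level of each of the 10 genes in every library, one panel per gene, with the 16 groups along the horizontal axis and CPM on a linear vertical axis from 0. Points are single libraries and lines are means of 3. Ptges, Pla2g2a and Pla2g4a sit high in the Tat groups and Ltc4s sits low in them.

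With Tat, Pla2g2a, Pla2g4a, Ptgs1 and Ptges were higher than in Control and Ltc4s was lower. Compared with Control, 4 of the 10 genes were called higher and 1 lower, where 14.6% of all genes tested were called higher and 6.70% lower. These counts include Pla2g2a and Ltc4s, which were tested only through the groups in which they were high. The median log2 change of the 10 genes was 0.62, against 0.01 over all genes tested. With quantile normalization 54.6% of the called genes were higher, in place of 68.5%.

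Pla2g4a, the cytosolic phospholipase A2 that releases arachidonic acid, measured 6.94, 8.68 and 12.3 CPM in the Control libraries and 37.8, 42.7 and 23.2 CPM in the Tat libraries. The groups did not overlap, and the log2 fold change was 1.83 (SE 0.321, adjusted p = 6.99e-05). Pla2g2a, a secreted phospholipase A2 known for its induction in inflammation, was close to undetected in Control, at 0, 0.0490 and 0.0908 CPM, which was 3 reads over the group. With Tat it measured 30.98, 35.1 and 3.59 CPM, and replicate 3 was the low one. The ratio of the Tat mean to the Control mean was 498, with a 95% counting interval of 180 to 2544 that rests on those 3 reads and covers counting error only. In the fit the log2 fold change was 4.93 (SE 0.838, adjusted p = 4.61e-05).

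Among the cyclooxygenases, only the constitutive Ptgs1 was called. Its values were 18.2, 24.6 and 27.5 CPM in Control and 45.2, 47.1 and 32.9 CPM with Tat, without overlap. The log2 fold change of Ptgs1 was 0.82 (SE 0.265, adjusted p = 0.0232), and the adjusted p rose to 0.078, 0.117 and 0.145 when Tat replicate 1, Tat replicate 2 or Control replicate 1, in that order, was left out, and to 0.0544 when the fit held the 6 libraries alone. Ptgs2, the inducible cyclooxygenase, measured 7.90, 3.87 and 4.77 CPM in Control and 8.06, 4.92 and 9.41 CPM with Tat. These ranges overlapped, and the log2 difference of 0.42 had a 95% interval from -0.61 to 1.45 (adjusted p = 0.576).

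Ptges, the inducible microsomal prostaglandin E2 synthase, measured 0.652, 0.834 and 0.227 CPM in Control and 31.8, 54.2 and 43.8 CPM with Tat. The lowest Tat library stood far above the highest Control library, and the group means were 0.571 ± 0.311 and 43.3 ± 11.2 CPM (SD, n = 3). The ratio of means was 75.8 and the log2 fold change 5.37 (SE 0.56, adjusted p = 8.43e-09). Hpgds, the hematopoietic prostaglandin D2 synthase expressed by microglia and mast cells, measured 16.1, 24.7 and 26.3 CPM in Control and 67.1, 61.4 and 23.9 CPM with Tat. Tat replicate 3 fell inside the Control range. The log2 difference of Hpgds was 1.06 (adjusted p = 0.0918), and it passed without Tat replicate 3. Ptgds, the lipocalin-type prostaglandin D2 synthase, varied too widely between libraries of 1 group for a difference to be seen, at 9.01, 2.35 and 50.4 CPM in Control and 6.29, 2.44 and 5.20 CPM with Tat (log2 difference -1.20, adjusted p = 0.492).

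Of the 3 leukotriene genes, Ltc4s was lower. Ltc4s, which joins glutathione to leukotriene A4, measured 2.30, 5.74 and 1.95 CPM in Control and 0.101, 0.690 and 0.0473 CPM with Tat. Every Tat library lay below every Control library, and the 3 Tat libraries held 18 reads in all against 220 in Control. Its log2 fold change was -2.26 (SE 0.448, adjusted p = 0.000341). Alox5ap, the 5-lipoxygenase activating protein, measured 7.32 to 16.6 CPM in Control and 8.56 to 21.98 CPM with Tat, a log2 difference of 0.25 (adjusted p = 0.738). Alox5 itself stayed at or below 0.236 CPM in all 6 libraries, a level at which the depth could not show a difference.

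Some cell type markers differed in the same comparison. Of 12 microglial markers tested, 2 (Aif1 and Itgam) were called higher with Tat, a share near the 14.6% of all genes, and the sum of the list was 1474 to 2746 CPM in Control and 1923 to 3536 CPM with Tat. Of 5 markers of border macrophages, the macrophages of the meninges and vessels, 4 (Cd163, Lyve1, Cd209f and Pf4) were lower, where 6.70% of all genes were. The sum of that list was 516 to 587 CPM in Control and 208 to 311 CPM with Tat. Of 7 astrocyte markers, 3 (Gfap, Gja1 and S100b) were lower, beside the same 6.70%. The astrocyte sum was 9409 to 11567 CPM in Control and 6470 to 8837 CPM with Tat. Of 8 mast cell markers, Cma1 and Mcpt1l1 were listed at 0 in all 48 libraries, Cpa3 in 47, Fcer1a in 45 and Tpsb2 in 44. The sum of the mast cell list was 55.8 to 79.3 CPM in Control and 28.8 to 54.8 CPM with Tat, most of it Kit, and 0 of its 2 genes tested were called. The part of these shifts in the changes of Ptges, Pla2g2a, Pla2g4a, Ptgs1 and Ltc4s was not tested.

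Libraries with and without Tat were separated under most compounds but less so under 4OI. Of the 30 libraries given Tat, 26 had more Ptges than any of the 18 libraries without it, 27 had more Pla2g2a and 25 had more Pla2g4a. The libraries that did not were 4OI libraries in 4 of 4 cases for Ptges, 3 of 3 for Pla2g2a and 4 of 5 for Pla2g4a. Ltc4s was below the whole range of the libraries without Tat (0.661 to 6.34 CPM) in 28 of 30. Ptges ranged from 0.208 to 2.44 CPM without Tat, with a median of 0.557, and from 1.08 to 54.2 CPM with Tat, with a median of 10.2. For Ptgs2 and Ptgds no library with Tat lay outside the range of those without it. Such separation was not counted over all genes, so how common it was is not known.

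The stretches before the transcription starts of Ptges, Pla2g2a and Pla2g4a are shown because these genes were higher with Tat and lower again with 4OI, and that of Ptgs2 because it followed a different course. Sequences were read from the RefSeq promoter table of build GRCr8, which held 8 of the 10 genes. Each covers the 250 bases before the start, 5′ to 3′ on the strand of the gene. The positions are chr3:34586988-34587237 on the minus strand for Ptges, chr5:156359475-156359724 on the plus strand for Pla2g2a, chr13:64572353-64572602 on the minus strand for Pla2g4a and chr13:64713813-64714062 on the plus strand for Ptgs2. Capitals mark matches to the motifs searched on both strands.
Ptges: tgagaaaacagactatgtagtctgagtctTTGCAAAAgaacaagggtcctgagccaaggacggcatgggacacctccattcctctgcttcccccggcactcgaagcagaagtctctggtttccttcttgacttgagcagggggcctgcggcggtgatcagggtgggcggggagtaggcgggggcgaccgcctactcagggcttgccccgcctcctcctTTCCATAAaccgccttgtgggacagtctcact
Pla2g2a: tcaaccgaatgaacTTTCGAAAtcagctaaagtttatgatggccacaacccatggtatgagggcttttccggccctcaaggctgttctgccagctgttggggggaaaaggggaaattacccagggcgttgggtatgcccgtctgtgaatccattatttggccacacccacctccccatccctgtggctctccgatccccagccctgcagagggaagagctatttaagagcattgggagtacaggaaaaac
Pla2g4a: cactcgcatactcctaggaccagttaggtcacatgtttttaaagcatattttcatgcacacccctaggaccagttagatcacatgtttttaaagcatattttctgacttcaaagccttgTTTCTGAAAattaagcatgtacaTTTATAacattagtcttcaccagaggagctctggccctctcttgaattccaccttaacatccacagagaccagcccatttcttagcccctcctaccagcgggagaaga
Ptgs2: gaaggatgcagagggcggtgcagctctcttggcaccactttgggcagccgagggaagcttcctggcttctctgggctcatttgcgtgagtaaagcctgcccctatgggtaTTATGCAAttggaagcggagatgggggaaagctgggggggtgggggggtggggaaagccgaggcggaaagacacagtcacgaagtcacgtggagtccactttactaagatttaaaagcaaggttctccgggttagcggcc
The motifs were a C/EBP pattern (TTNNGNAA), a TATA box (TATAAA), a cyclic AMP response element (TGACGTCA), an AP-1 site (TGANTCA), a kappa B pattern (GGGANTNNC) and an antioxidant response element core (TGACNNNGC). Ptges held 2 matches to the C/EBP pattern, TTGCAAAA beginning 221 bases and TTCCATAA 32 bases before the start. Pla2g2a held TTTCGAAA, 236 bases before the start, and Ptgs2 held TTATGCAA at 140 bases. Pla2g4a held a pair of overlapping C/EBP matches at 131 and 130 bases and a TATA match on the other strand at 108 bases. Among the promoters not shown, Ptgds, which was not called with Tat, held the C/EBP match TTACATAA at 187 bases. Ptgs1, which was called higher with Tat, held no match to any of the motifs, and neither did Alox5 and Ltc4s. The C/EBP pattern is loose and occurs in 37.2% of the 33469 promoters of that length in the table, the TATA box in 12.9%. No other motif of the 6 matched in these 4 windows, and the other patterns occur in 1.59% (cyclic AMP response element) to 11.7% (kappa B) of all promoters. A match describes letters and is not a binding site.

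When cocaine was combined with Tat, the pattern over Control was similar but less even. In Tat-Cocaine against Control, 3 of the 10 genes were called higher (Ptges, Pla2g2a and Pla2g4a), where 8.63% of all genes tested were higher, and Ltc4s was lower, where 6.30% were lower. Ptges measured 7.37, 46.3 and 31.2 CPM, all above Control (log2 fold change 4.45, SE 0.56, adjusted p = 5.86e-07). Ltc4s measured 0.511, 0.123 and 0.282 CPM, all below Control (log2 fold change -2.15, adjusted p = 0.000935). The phospholipase calls rested on replicate 3. Pla2g2a measured 0.213, 3.23 and 19.5 CPM, with an adjusted p of 0.021 that became 0.242 when replicate 3 was left out, 0.055 when replicate 2 was, and 0.0587 when the library left out was Control replicate 1. Pla2g4a measured 19.8, 16.2 and 42.5 CPM, with an adjusted p of 0.00321 that became 0.0612 without replicate 3 and 0.1 in a fit of the 6 libraries alone. Tat and Tat-Cocaine were each compared with the same 3 Control libraries.

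**Figure D2:**
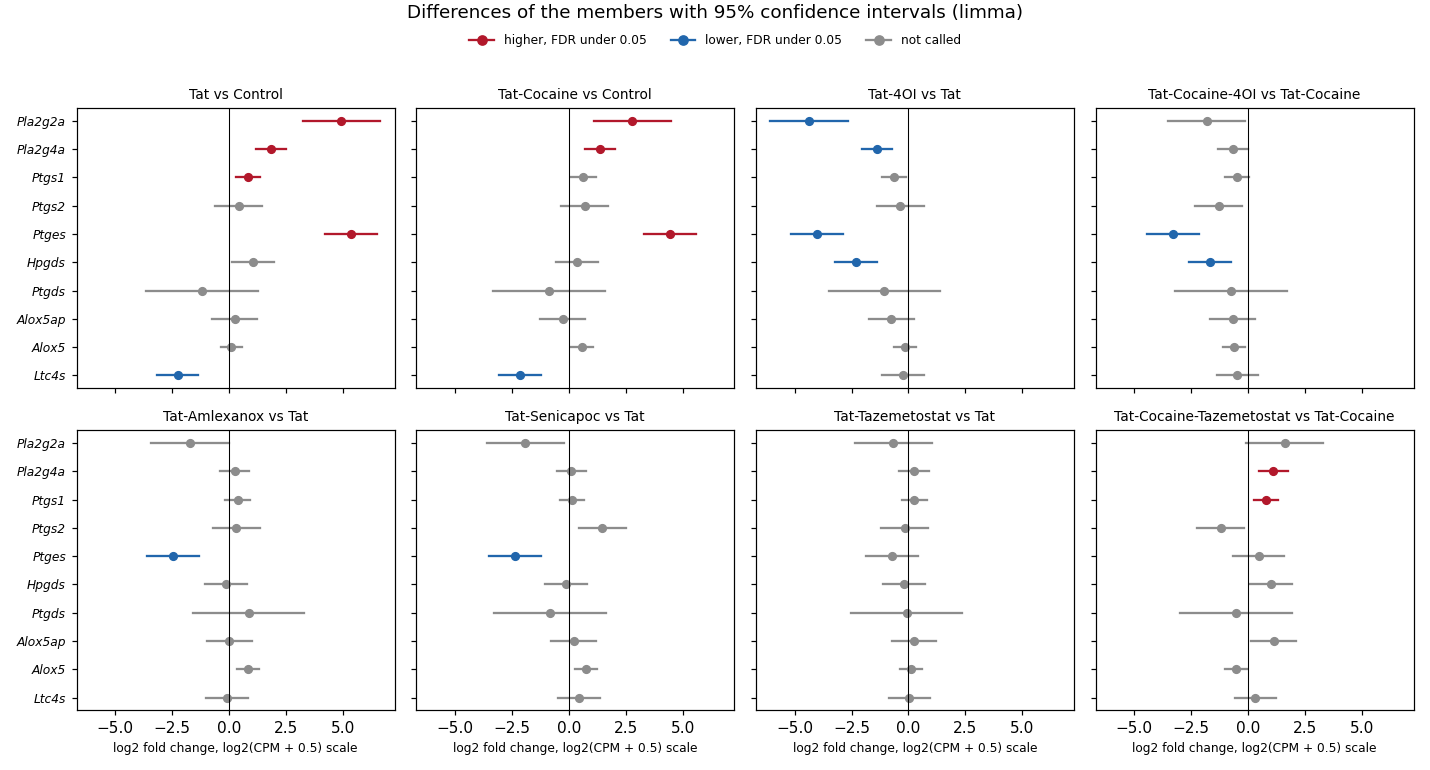
Log2 differences of the 10 genes on the log2(CPM + 0.5) scale in the comparisons of Tat, cocaine and the compounds, with 95% intervals from the limma fit. Red points are higher and blue points lower at an adjusted p below 0.05 (FDR), and grey points were not called. Ptges lies far to the right of 0 for Tat and Tat-Cocaine against Control and to the left for Tat-4OI against Tat.

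Cocaine alone changed none of the 10 genes in the limma test (1 at an unadjusted p below 0.05, and 1996 of all genes tested), where 0.201% of all genes were called in either direction. The gene with the unadjusted p below 0.05 was Ptgs2, at 7.90, 3.87 and 4.77 CPM in Control and 4.29, 0.723 and 1.29 CPM with cocaine. Cocaine replicate 1 lay inside the Control range, and the log2 difference was -1.40 (SE 0.508, adjusted p = 0.227).

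A lower Ptgs2 level with cocaine was called when cocaine was compared in all 5 Tat backgrounds together. Across Tat, Tat-4OI, Tat-Amlexanox, Tat-Tazemetostat and Tat-Senicapoc, adding cocaine lowered Ptgs2 by a mean log2 change of -0.88 (SE 0.227, adjusted p = 0.02), and no other of the 10 genes was called. Of all genes tested, 2.91% were called lower and 1.64% higher. The call held without each of the 30 libraries in turn, with log2 changes between -0.97 and -0.79. No background was left out as a whole, and single backgrounds ran from -2.25 with senicapoc to 0.28 with no compound.

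The backgrounds were not alike. With senicapoc, Ptgs2 measured 18.4, 24.5 and 20.4 CPM with Tat and 4.37, 3.65 and 4.03 CPM once cocaine was added, a log2 difference of -2.25. With amlexanox the values were 7.29, 8.52 and 11.9 CPM without cocaine and 3.53, 4.98 and 4.33 CPM with it. With 4OI they were 5.30, 5.70 and 5.55 CPM and 3.60, 2.80 and 3.62 CPM. Those 3 pairs of groups did not overlap, and neither did the pair with tazemetostat, at 5.30, 4.71 and 10.5 CPM without and 3.04, 3.47 and 4.18 CPM with cocaine. With no compound the ranges overlapped, at 8.06, 4.92 and 9.41 CPM for Tat and 4.34, 9.41 and 16.5 CPM for Tat-Cocaine, a log2 difference of 0.28. Differences between backgrounds were not tested. Neuronal markers moved beside this result: 2 of 7 (Tubb3 and Gad1) were lower with cocaine over the 5 backgrounds, where 2.91% of all genes were. Across the 48 libraries the level of Ptgs2 had a Pearson r of 0.577 with the summed neuronal markers, given as a description. The part of neuronal RNA in the change of Ptgs2 was not tested.

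**Figure D3:**
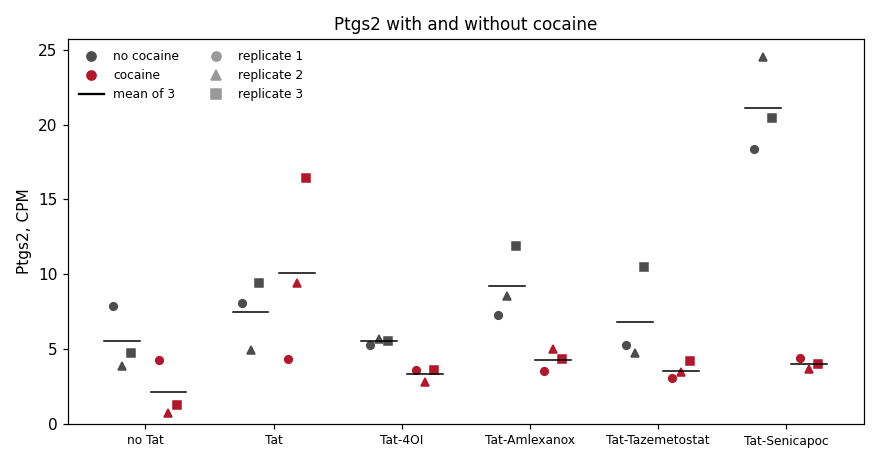
Ptgs2 in CPM in each library without and with cocaine, with no Tat and in 5 Tat backgrounds, on a linear axis from 0. Points are libraries and lines are means of 3. The senicapoc background has the widest gap, from 18.4 to 24.5 CPM without cocaine to 3.65 to 4.37 CPM with it.

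Adding 4OI to Tat was followed by lower Ptges, Pla2g2a and Pla2g4a, which Tat had raised, and lower Hpgds. In Tat-4OI against Tat, 4 of the 10 genes were called lower and 0 higher, where 9.48% of all genes tested were lower and 6.10% higher. Their median log2 change was -0.91, against -0.000195 over all genes tested. With quantile normalization 50% of the called genes were higher, in place of 39.2%. This comparison uses the same Tat libraries as Tat against Control.

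Ptges measured 1.18, 4.89 and 1.56 CPM in Tat-4OI, against 31.8 CPM in the lowest Tat library, and the group mean was 5.87% of the Tat mean. The log2 fold change was -4.01 (SE 0.56, adjusted p = 5.98e-06). Ptges in Tat-4OI was nonetheless above the 4OI group, which measured 0.295, 0.604 and 0.208 CPM, in all 3 libraries. Pla2g2a measured 0.0535, 1.24 and 0.0487 CPM in Tat-4OI, and 25 reads in all against 1450 in Tat, with no overlap (log2 fold change -4.36, SE 0.838, adjusted p = 0.000448). Hpgds measured 7.76, 16.1 and 5.69 CPM, below every Tat library (log2 fold change -2.30, SE 0.455, adjusted p = 0.000605), and 2 of these libraries were also below every Control library. Pla2g4a measured 9.85, 19.4 and 10.1 CPM, again below every Tat library (log2 fold change -1.39, SE 0.321, adjusted p = 0.0029). Ptgs1, at 22.5, 35.97 and 22.04 CPM, overlapped with Tat and was not called (log2 difference -0.65, adjusted p = 0.0894). Ltc4s stayed low, at 0.161, 0.215 and 0 CPM.

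With cocaine present the same direction was called for a smaller set. In Tat-Cocaine-4OI against Tat-Cocaine, Ptges and Hpgds were lower, 2 of the 10 genes where 3.29% of all genes tested were lower, and 0 were higher, where 4.07% were. Ptges measured 1.08, 4.198 and 1.14 CPM against 7.37, 46.3 and 31.2 CPM (log2 fold change -3.30, SE 0.56, adjusted p = 0.000146). Hpgds measured 4.12, 17.3 and 8.13 CPM against 22.1, 15.8 and 63.2 CPM, so the ranges overlapped. Its log2 fold change of -1.68 (adjusted p = 0.0188) had an adjusted p of 0.144 when replicate 3 of Tat-Cocaine was left out, and of 0.132 or 0.0646 when replicate 1 or replicate 3 of Tat-Cocaine-4OI was. In a fit of the 6 libraries alone neither gene passed, at adjusted p = 0.135 for Ptges and 0.311 for Hpgds. Pla2g2a, at 0.0468, 2.62 and 0.198 CPM, and Pla2g4a, at 9.36, 24.5 and 14.03 CPM, overlapped with Tat-Cocaine and were not called (adjusted p = 0.197 and 0.214).

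Without Tat, 4OI changed none of the 10 genes in the limma test (0 at an unadjusted p below 0.05, and 2082 of all genes tested), where 3.15% of all genes were called. Pla2g2a was listed at 0 in all 3 libraries of 4OI, and likewise in Amlexanox and in Senicapoc. The difference between the effect of 4OI with and without Tat was tested as an interaction, and Ptges was the 1 gene of the 10 that was called (log2 -3.73, SE 0.792, adjusted p = 0.0176), where 0.447% of all genes tested were called lower. Pla2g2a had a larger interaction value with a larger error (log2 -4.24, SE 1.18, adjusted p = 0.0921). Both genes were already low in Control, at 0.227 to 0.834 CPM for Ptges and 0 to 0.0908 CPM for Pla2g2a. Without Tat, 4OI therefore had little room to lower them, and the interaction cannot tell a dependence on Tat from that floor. Leaving out Tat replicate 2 gave the Ptges interaction an adjusted p of 0.0705, and leaving out Control replicate 3 gave 0.0646. For Tat-4OI replicates 1 and 3 it was 0.0774 and 0.064.

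Microglial and macrophage markers were lower in the 4OI groups as well. Of 12 microglial markers, 3 (Itgam, Csf1r and C1qb) were called lower when 4OI was added to Tat, where 9.48% of all genes tested were lower. When 4OI was added to Tat plus cocaine, 4 of the 12 were lower, where 3.29% of all genes were. The microglial sum was 781 to 1867 CPM in Tat-4OI against 1923 to 3536 CPM in Tat. Border macrophage markers summed to 45.98 to 201 CPM in Tat-4OI and 208 to 311 CPM in Tat, with 3 of 5 lower beside the same 9.48%. Over the 48 libraries the Pearson r with the microglial sum was 0.576 for Ptges, 0.589 for Pla2g2a, 0.677 for Pla2g4a and 0.845 for Hpgds, and that with the astrocyte sum was -0.723 for Ptges, as a description of libraries that share treatments. The part of these cells in the changes with 4OI was not tested.

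**Figure D4:**
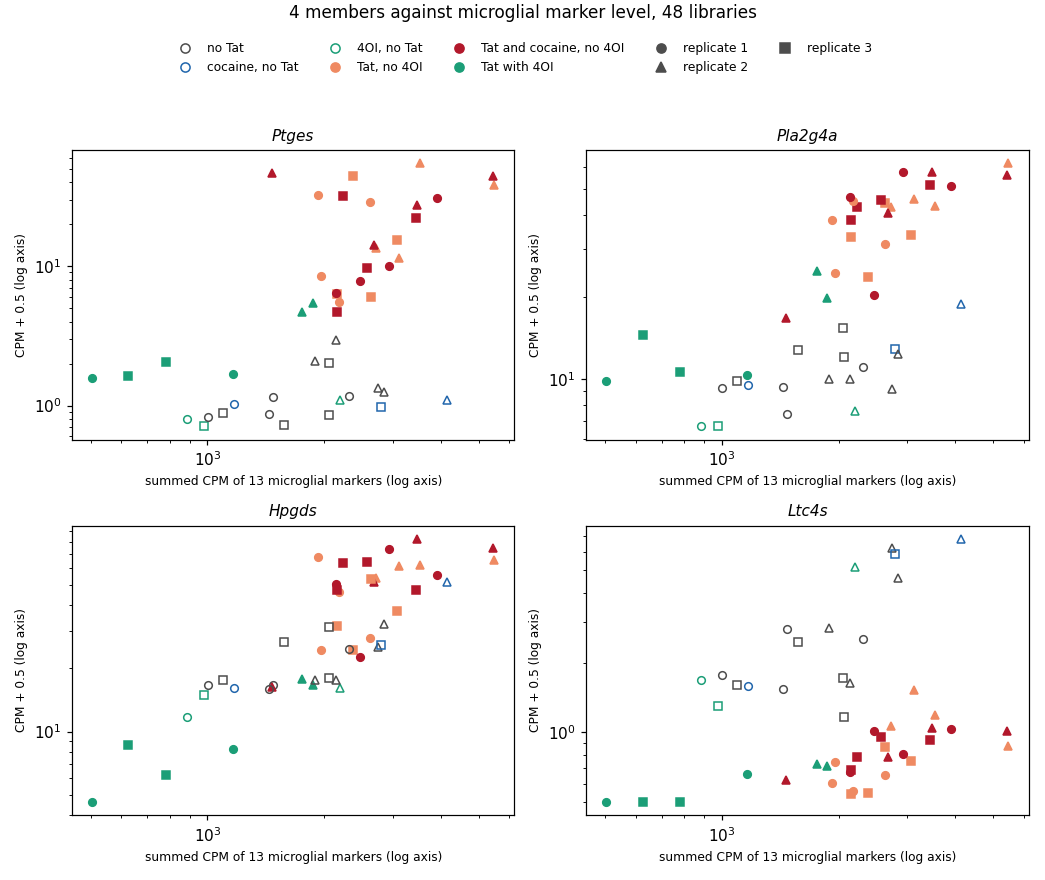
Ptges, Pla2g4a, Hpgds and Ltc4s (CPM + 0.5) in each of 48 libraries against the summed CPM of 13 microglial markers, both axes logarithmic, with filled points for libraries given Tat and colours for cocaine and 4OI. Ptges lies at 1.08 to 54.2 CPM with Tat and 0.208 to 2.44 CPM without, while the marker sums of these libraries overlap, and Ltc4s is low in the filled points.

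Amlexanox lowered Ptges in the presence of Tat. Tat-Amlexanox measured 5.06, 12.99 and 5.76 CPM, all below the Tat libraries (log2 fold change -2.46, SE 0.56, adjusted p = 0.0282), and Ptges was the 1 gene of 10 called lower where 0.434% of all genes tested were lower. The call was not stable, since the adjusted p was 0.232 or 0.0794 when replicate 2 or 3 of Tat was left out, 0.244 or 0.117 when replicate 1 or 3 of Tat-Amlexanox was, and 0.262 in a fit of the 6 libraries alone. In this comparison libraries of the same number deviated together, and with the replicate number as a block the adjusted p of Ptges was 0.000186. Under that block Alox5 was also called, with an adjusted p of 0.0229 in place of 0.0736, at 0.835, 0.257 and 1.00 CPM in Tat-Amlexanox and 0.152, 0.0460 and 0.236 CPM in Tat. These Alox5 groups did not overlap, but their libraries held only 15, 5 and 23 reads in Tat-Amlexanox and 3, 1 and 5 reads in Tat. Alox5 was tested only through the groups in which it was high, so its call is given as a description only. Pla2g4a (44.7, 42.5 and 32.6 CPM) and Ptgs1 (59.6, 52.3 and 49.1 CPM) were not lower than in Tat.

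Given alone, amlexanox called none of the 10 genes in limma (1 at an unadjusted p below 0.05, and 4154 of all genes tested) although 11.4% of all genes were called. That 1 gene was Ltc4s, at 1.04, 1.12 and 0.661 CPM, all below Control (log2 difference -1.29, adjusted p = 0.0548). Ptges measured 0.376, 2.44 and 1.53 CPM with amlexanox alone, and its interaction with Tat was called (log2 -3.20, SE 0.792, adjusted p = 0.034), where 0.428% of all genes tested were lower and 1.41% higher. As for 4OI, the low level of Ptges in Control left little room for a fall without Tat, which limits the reading of this interaction. Leaving out any 1 of 7 libraries (Tat replicates 2 and 3, Control replicate 3, Amlexanox replicates 2 and 3, Tat-Amlexanox replicates 1 and 3) ended that call, with adjusted p from 0.0558 to 0.173. With Tat and cocaine, Ptges measured 5.92, 13.7 and 4.22 CPM and overlapped with Tat-Cocaine (log2 difference -1.59, adjusted p = 0.14). None of the 10 genes was called there by limma (2 at an unadjusted p below 0.05, and 2829 of all genes tested), where 0.925% of all genes were.

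Senicapoc with Tat gave Ptges values of 7.94, 10.9 and 5.54 CPM, again below every Tat library (log2 fold change -2.36, SE 0.56). The adjusted p of 0.0496 was at the edge of the threshold, where 0.340% of all genes tested were called lower, and it lay above 0.05 when any 1 of the 6 libraries was left out, from 0.0516 to 0.245. In the same libraries Ptgs2 was at its highest group mean of the study, 21.1 ± 3.15 CPM (SD, n = 3), above every Tat library, but the difference from Tat was not called (log2 1.48, SE 0.508, adjusted p = 0.148). With senicapoc alone, none of the 10 genes was called by limma (1 at an unadjusted p below 0.05, and 1378 of all genes tested), and the share over all genes was 0%. That 1 gene was again Ptgs2, at 23.3, 7.04 and 21.4 CPM (log2 difference 1.45, adjusted p = 0.44). In Tat-Cocaine-Senicapoc, none of the 10 was called against Tat-Cocaine where 0.0441% of all genes tested were, but 5 had an unadjusted p below 0.05 (2466 of all genes). Pla2g4a, for example, measured 57.1, 57.0 and 44.9 CPM, above all Tat-Cocaine libraries (log2 difference 1.12, adjusted p = 0.16), and Hpgds measured 73.6, 82.3 and 63.4 CPM (log2 difference 1.36, adjusted p = 0.182). The interaction of senicapoc with Tat was called for none of the 10 genes and for 0% of all genes (limma, 1 of the 10 and 762 of all genes at an unadjusted p below 0.05). Ptges had an interaction value of -2.51 (SE 0.792, adjusted p = 0.853).

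Tazemetostat left the Ptges level with Tat in the upper range. Tat-Tazemetostat measured 28.4, 37.6 and 14.8 CPM against 31.8, 54.2 and 43.8 CPM in Tat, a log2 difference of -0.74 with a 95% interval from -1.88 to 0.40 (adjusted p = 0.999). None of the 10 genes was called there by limma (0 at an unadjusted p below 0.05, and 851 of all genes tested), and 0% of all genes were. The same held for tazemetostat alone, with 0% of all genes called (0 of the 10 and 576 of all genes at an unadjusted p below 0.05), and for its interaction with Tat, with 0% called (0 of the 10 and 271 of all genes).

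In the presence of cocaine, tazemetostat went with higher levels of 2 genes. Pla2g4a measured 50.5, 55.7 and 51.0 CPM in Tat-Cocaine-Tazemetostat, above 19.8, 16.2 and 42.5 CPM in Tat-Cocaine (log2 fold change 1.11, SE 0.321, adjusted p = 0.0145). Ptgs1 measured 65.8, 59.9 and 62.9 CPM, above 32.8, 32.01 and 45.5 CPM (log2 fold change 0.78, SE 0.265, adjusted p = 0.0285). These were 2 of the 10 genes called higher where 15.2% of all genes tested were higher and 13.4% lower, so the share among the 10 was near the background. Leaving out Tat-Cocaine replicate 1 or 2 or Tat-Cocaine-Tazemetostat replicate 2 ended both calls, and leaving out Tat-Cocaine-Tazemetostat replicate 1 or 3 ended that of Ptgs1, while 5 of the 10 genes were higher without Tat-Cocaine replicate 3. Cell type markers shifted strongly here, with 5 of 12 microglial markers higher, 6 of 7 neuronal markers lower, and a microglial sum of 3443 to 5442 CPM against 1466 to 2475 CPM. The part of that shift in the changes of Pla2g4a and Ptgs1 was not tested.

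Over all 16 groups the 10 genes fell into different ranges of movement. Ptges spanned group means from 0.369 CPM in 4OI to 43.3 CPM in Tat, Pla2g4a from 6.50 CPM in 4OI to 53.0 CPM in Tat-Cocaine-Senicapoc, and Ptgs1 from 16.7 CPM in Amlexanox to 62.8 CPM in Tat-Cocaine-Tazemetostat. Alox5ap moved less, from 7.73 CPM in Tat-Cocaine-4OI to 22.1 CPM in Tat-Cocaine-Senicapoc. In most cases groups next to each other in this order overlapped. Neighbouring groups were separated at 1 step for Ptges (Tat-4OI to Tat-Amlexanox), 1 for Pla2g2a (Tat-Cocaine-4OI to Tat-Cocaine-Amlexanox) and 1 for Pla2g4a (4OI to Senicapoc), and at 0 steps for the other 7 genes. These steps were not counted over all genes. Ptgds ranged from 0.487 to 67.8 CPM, and its high libraries stood alone in their groups: Control replicate 3 at 50.4 CPM, Cocaine replicate 3 at 67.8 CPM, Senicapoc replicate 3 at 44.2 CPM, Tat-Amlexanox replicate 1 at 34.5 CPM and Tat-Cocaine-Amlexanox replicate 2 at 37.3 CPM. In Cocaine replicate 3 the summed oligodendrocyte markers were 25616 CPM. In the other libraries named they were 323 CPM (Control replicate 3), 1104 CPM (Senicapoc replicate 3), 395 CPM (Tat-Amlexanox replicate 1) and 356 CPM (Tat-Cocaine-Amlexanox replicate 2). The part of such cells in the level of Ptgds, an oligodendrocyte and meningeal product, was not tested. Alox5 ranged from 0 to 1.17 CPM, and 1.17 CPM was reached in Tat-Cocaine-Senicapoc replicate 1.

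Other genes of the pathway were counted from a fixed list, of which 63 had a row and 44 were tested. With Tat, 13 of the 44 were called higher and 2 lower, where 14.6% and 6.70% of all genes tested were. Receptors were among them, with 3 of 7 tested prostanoid receptors higher. Ptgir, the prostacyclin receptor, measured 0.192, 0.392 and 0.0908 CPM in Control and 5.78, 8.78 and 9.55 CPM with Tat (log2 fold change 3.55, adjusted p = 1.62e-07). Ptger4 and Ptger2, the prostaglandin E2 receptors that raise cyclic AMP, had log2 fold changes of 2.21 (adjusted p = 1.5e-06) and 1.93 (adjusted p = 1.35e-05), and no Control library reached any Tat library for these 3 receptors. In Tat-Cocaine the same 3 receptors were higher (log2 3.85, 1.68 and 1.56), among 8 of the 44 genes higher and 2 lower, where 8.63% and 6.30% of all genes were.

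Among the synthases, Mgst2, a microsomal glutathione transferase that can also form leukotriene C4, measured 0.882, 0.784 and 0.318 CPM in Control and 3.85, 4.74 and 6.38 CPM with Tat (log2 fold change 2.25, adjusted p = 9.21e-07), opposite in direction to Ltc4s. Tbxas1, thromboxane synthase, and Lta4h, which makes leukotriene B4, were also higher (log2 1.23 and 0.78). Pla2g7, the hydrolase that inactivates platelet-activating factor, was lower with Tat, at 43.5, 41.3 and 55.3 CPM against 97.4, 76.1 and 83.5 CPM (log2 -0.87, adjusted p = 0.000732).

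4OI moved Pla2g7 the other way with and without Tat and cocaine. Pla2g7 measured 271, 282 and 253 CPM with 4OI alone (log2 1.65, adjusted p = 1.05e-07) and 289, 203 and 224 CPM in Tat-4OI, against 41.3 to 55.3 CPM in Tat (log2 2.34, adjusted p = 5.58e-11). With cocaine the log2 change of Pla2g7 was 1.72 (adjusted p = 5.67e-08). Of the 44 genes, 2 were higher and 8 lower in Tat-4OI against Tat, where 6.10% and 9.48% of all genes were. Among the lower ones were Ptger4 (log2 -1.32, adjusted p = 0.00263) and Ptger2 (log2 -1.24, adjusted p = 0.00471). Leaving out Tat-4OI replicate 3 ended the call of Ptger2 (adjusted p = 0.0751), and in a fit of the 6 libraries alone neither passed (adjusted p = 0.101 for Ptger4 and 0.0664 for Ptger2). In Tat-Cocaine-4OI against Tat-Cocaine the counts were 3 higher and 5 lower, where 4.07% and 3.29% of all genes were, and with 4OI alone 2 higher and 1 lower, where 3.15% were called. Cocaine over the 5 Tat backgrounds raised 1 of the 44, Hpgd, which begins the breakdown of prostaglandins (log2 0.43, adjusted p = 0.00578), where 1.64% of all genes were higher. Cocaine alone raised or lowered 0 of the 44 (4 at an unadjusted p below 0.05 in limma, and 1996 of all genes), where 0.201% of all genes were called. In Tat-Cocaine-Amlexanox, Ptgir was the 1 gene lower (log2 -1.74, adjusted p = 0.0436), where 0.925% of all genes were called. The Ptgir call was lost under 4 of 9 settings, and leaving out replicate 1 or 2 of Tat-Cocaine or replicate 1 or 3 of Tat-Cocaine-Amlexanox ended it too (adjusted p up to 0.347). Amlexanox alone gave 1 higher and 2 lower, where 11.4% of all genes were called, and Tat-Cocaine-Tazemetostat gave 12 higher and 4 lower, where 15.2% and 13.4% were. In the other 6 comparisons of a compound with its own background, limma called 0 of the 44. Of all genes tested, 133 were called in Tat-Amlexanox, 65 in Tat-Senicapoc, 7 in Tat-Cocaine-Senicapoc and 0 in Tazemetostat, Senicapoc and Tat-Tazemetostat. At an unadjusted p below 0.05 in limma were 0 of the 44 (Tazemetostat, 576 of all genes) to 13 (Tat-Cocaine-Senicapoc, 2466 of all genes).

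**Figure D5:**
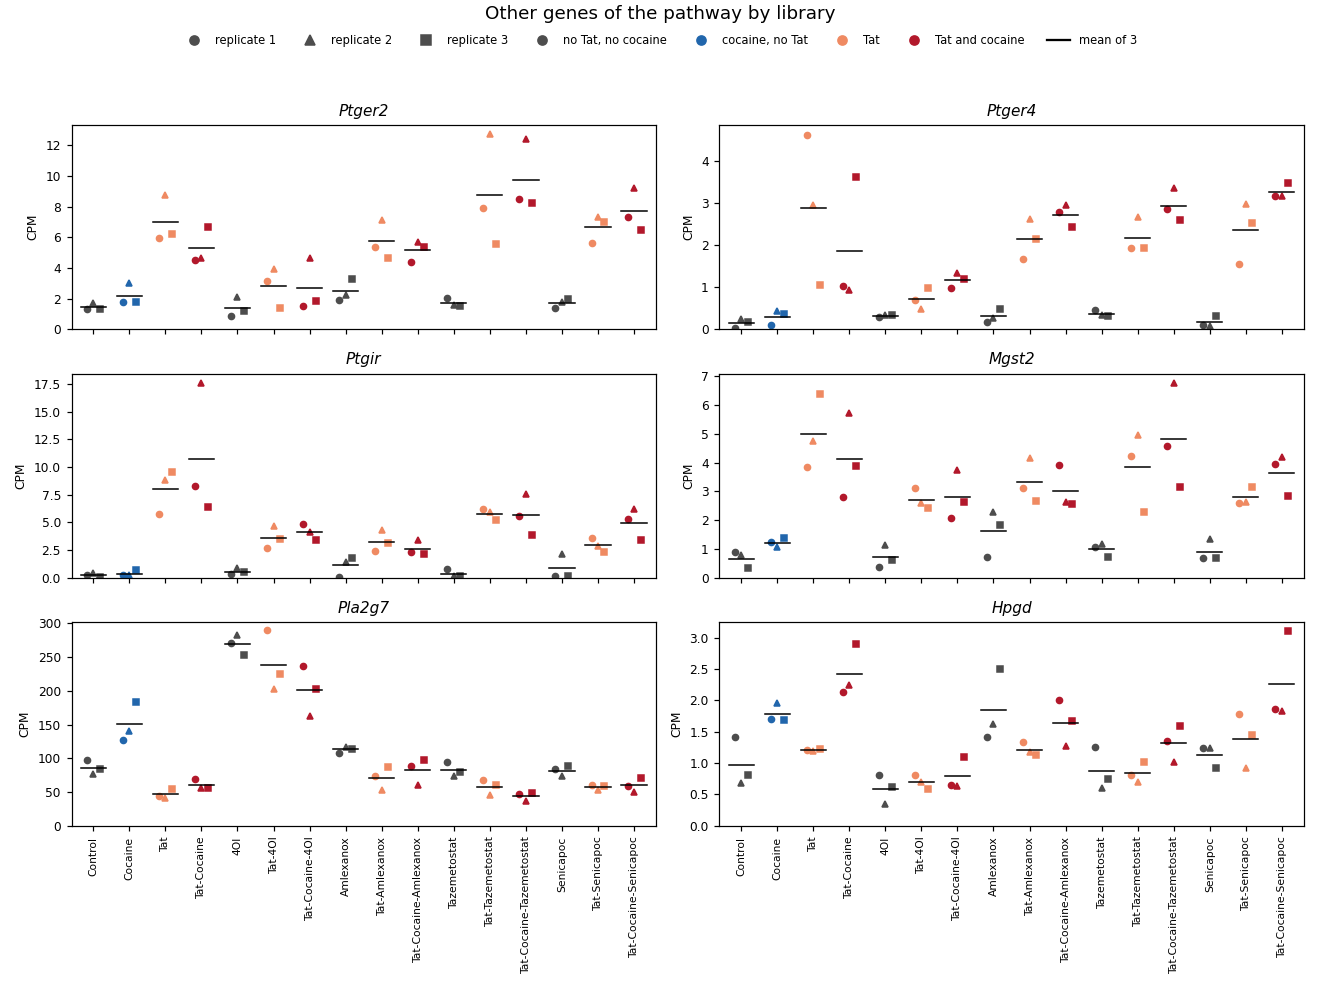
CPM on a linear axis from 0 in every library for Ptger2, Ptger4, Ptgir, Mgst2, Pla2g7 and Hpgd, with the 16 groups along the horizontal axis, points for libraries and lines for means of 3. The 3 receptors and Mgst2 are higher in the Tat groups than in Control, and Pla2g7 is highest in the groups with 4OI.

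The genes whose levels ran most alike to the 10 were found by Pearson r of log2(CPM + 0.5) over the 48 libraries, among 14101 genes with a median of at least 1 CPM, as a description of libraries that share treatments. Ptges ran closest to Cd274, Tnfaip3 and Cd69 (r = 0.968 for Cd274), Pla2g2a to Ciita, Acod1 and N4bp1 (0.969 for Ciita) and Pla2g4a to Samsn1 (0.986). For Ptgs1 these were Tor4a, Tbxas1 and Ifngr1 (0.959 for Tor4a), for Hpgds Slc7a7, Tlr7 and Nckap1l (0.963 for Slc7a7) and for Alox5ap Cd180, Cnr2 and Ptafr (0.964 for Cd180). Ptgs2 ran closest to Egr3, Slit3 and Fosb (0.811 for Egr3). For Ltc4s they were Engase, Mbd4 and Cryba4 (0.862 for Engase), for Alox5 Ddx3x, Marchf5 and Fxyd2 (0.744 for Ddx3x) and for Ptgds Vezf1, Slc20a2 and Rbl2 (0.646 for Vezf1).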

How the data were processed

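RNA sequencing libraries had been trimmed and aligned by the authors, whose submitters' processing notes name Trim Galore 0.4.5, STAR 2.7.2, SAMtools 1.5 and featureCounts of Subread 1.5.3. The sources name different genome builds, so no coordinates of the files were used. The deposited values are CPM (reads per 1e6 reads on genes) scaled by TMM factors, treated here as a signal, and 84.9% to 87.3% of values per library came out as whole reads within 0.02 read, so no count test was run. The deposited columns of 36 comparisons and 16 group averages by the authors hold fold changes, p-values and means and were not used. Here, limma 3.58.1 in R 4.3.3 was fitted once to all 48 libraries on log2(value + 0.5), with a trend in the prior variance, after a minimum of 0.5 CPM in 3 libraries, and was first tested on simulated data. An exact permutation test of 3 against 3 cannot go below p = 0.1 and was not used. The 10 genes and all lists were chosen with earlier results of these data known. Other pathway genes were named when called, at most 3 per list and comparison by size of change. 1 result on genes that ran alike to Pla2g4a is not reported here. Replicate pairs within groups had r of 0.987 to 0.999, and 0 pairs were identical. Replicate numbers were taken to pair libraries where deviations of every same-numbered pair correlated above 0.1, in 5 of 15 comparisons. Alternatives were 9 settings and leaving out each of 48 libraries.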

Additional observations from a re-analysis of the deposited data

Results flagged for a closer look

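The effect of a compound with Tat differed from its effect without Tat, by the interaction term of the limma fit, for 4 values among the 10 genes and the other pathway genes tested. For Ptges the log2 difference between the effects of 4OI was -3.731, and Ptges was lower in Tat-4OI than in Tat in 3 of 3 libraries while 4OI alone overlapped with Control. For Ptges the log2 difference between the effects of amlexanox was -3.204, with Tat-Amlexanox below Tat and Amlexanox alone overlapping with Control. Ptges was already low in Control, at 0.227 to 0.834 CPM, so either compound alone had little room to lower it. The values for Ptges therefore cannot tell a dependence on Tat from that floor. Ptges2, a second prostaglandin E synthase, had a value of -0.554 with 4OI (adjusted p = 0.0415), at 63.7, 60.5 and 58.6 CPM in Tat, 40.6, 40.3 and 41.3 CPM in Tat-4OI, 37.1, 34.9 and 39.98 CPM in 4OI and 38.1, 37.998 and 37.4 CPM in Control. That value was lost under 6 of 9 settings and without 10 of 12 libraries (adjusted p up to 0.159), all but Tat replicate 3 and 4OI replicate 2. Plaat3, a phospholipase of adipose and other tissues, had a value of 0.962 with amlexanox (adjusted p = 0.0416), at 76.8, 84.6 and 95.01 CPM in Control, 60.7, 48.6 and 29.04 CPM in Amlexanox, 75.2, 65.0 and 66.3 CPM in Tat and 79.4, 71.0 and 60.1 CPM in Tat-Amlexanox. It was lost under 2 of 9 settings and without 8 of 12 libraries (adjusted p up to 0.236), all but replicate 1 of Tat, Control and Amlexanox and replicate 3 of Tat-Amlexanox.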

How the results depend on the processing

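Of 22 called values of the 10 genes, 14 stayed called under all of the 9 settings in which the gene was tested. Without each library in turn 12 stayed called, and 11 did under both, and 0 changed direction. Pla2g2a in Tat-Cocaine against Control, counted among the 14, was tested in 8 of the 9 settings. Of 64 called values of the other named pathway genes the counts were 29, 31 and 21, with 0 changed in direction. Settings in which a gene was not tested were again left out of the first count. Of 32 values of the 10 genes that were not called but had an unadjusted p below 0.05, 9 were called under at least 1 setting. Pathway counts moved by over 1.5 times in 24 of 180 cases under a setting and in 38 of 168 without a library. The cause of these changes was not tested.

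Fitting the compared groups alone, with fewer libraries to estimate the spread, left 1 gene of the 10 higher in Tat-Cocaine against Control, and 0 lower in Tat-Amlexanox, Tat-Senicapoc and Tat-Cocaine-4OI and in the interactions of 4OI and amlexanox. In Tat-Cocaine the adjusted p of Pla2g4a was then 0.1. Pla2g2a was not tested there, since it did not reach 0.5 CPM in 3 of those libraries. A pseudocount of 0.1 left 0 lower in Tat-Amlexanox, in Tat-Senicapoc and in the 4OI interaction, and a pseudocount of 1 gave 1 lower (Ltc4s) with amlexanox alone. With no filter, 0 were lower in Tat-Senicapoc and in the amlexanox interaction. Median ratio rescaling, quantile normalization and a prior variance without a trend each left 0 lower in Tat-Senicapoc. With the replicate number as a block, 1 gene was lower with amlexanox alone, in Tat-Cocaine-Amlexanox and in Tat-Cocaine-Tazemetostat, 1 was higher in Tat-Amlexanox and Tat-Senicapoc, 4 were higher in Tat-Cocaine-Tazemetostat and 2 lower in the 4OI interaction, and Hpgds was also called in Tat against Control (adjusted p = 0.0495), where the numbers did not pair the libraries. The block changed no other count of calls among the 10 genes by over 1.5 times. In 10 of 15 comparisons the numbers did not pair the libraries. For 30 of 48 libraries, the mean correlation of deviations with libraries of other groups was highest for those of their own number.

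Leaving out 1 library at a time, the count of the 10 genes ran from 3 to 5 higher with Tat, 0 to 1 lower with Cocaine (1 without Cocaine replicate 1), 1 to 3 higher in Tat-Cocaine, 0 to 1 lower with amlexanox alone (1 without Control replicate 1), 0 to 1 higher and 0 to 1 lower in Tat-Amlexanox, 0 to 0 lower in Tat-Senicapoc, 4 to 5 lower in Tat-4OI, 1 to 3 lower in Tat-Cocaine-4OI, 0 to 1 higher in Tat-Cocaine-Amlexanox, 0 to 5 higher in Tat-Cocaine-Tazemetostat, 0 to 2 higher in Tat-Cocaine-Senicapoc, 0 to 2 lower in the 4OI interaction and 0 to 1 lower in the amlexanox interaction. Tat-Cocaine replicate 3 was the library behind the counts of 1 in Tat-Cocaine, 5 in Tat-Cocaine-Tazemetostat and 2 in Tat-Cocaine-Senicapoc. Rescaling moved the median of all genes by less than 0.1 (log2) in every comparison. Quantile normalization moved the share of called genes that were higher from 18.8% to 33.3% with Cocaine, from 48.1% to 63.2% in Tat-Amlexanox and from 28.6% to 15.4% in Tat-Cocaine-Senicapoc, and median ratio rescaling from 16.9% to 34.8% in Tat-Senicapoc. At 1 read per 0.0334 to 0.0583 CPM, differences in Alox5, and in Pla2g2a or Ltc4s where these were low, rest on few reads.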
